A study of Bos taurus with 12 samples.

Results

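The 10 genes described here encode the 3 TGF-beta ligands (TGFB1, TGFB2 and TGFB3), the TGF-beta receptors TGFBR1 and TGFBR2, the co-receptors TGFBR3 and ENG, the BMP type II receptor BMPR2, and the inhibitory SMADs SMAD6 and SMAD7. They were chosen by symbol, as 10 of the 24616 genes measured in the right ventricle of Angus steers. The symbol itself found 9 of them, and BMPR2 is listed under its older symbol BMPRII. All 10 had at least 1 RPKM (a read count scaled by a gene's exon length and by library size) in at least 3 libraries, which is the filter that left 11374 genes for testing. TGFB2 reached 1 RPKM in 8 of the 12 libraries, TGFBR1 and SMAD6 in 9, TGFB3 in 11 and the other 6 genes in all 12.

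The ventricles came from 12 animals in 3 groups: PH-failure, meaning pulmonary hypertension with right heart failure (3 animals), PH-healthy, meaning pulmonary hypertension without clinical signs of failure (3 animals), and low PAP, with a low pulmonary arterial pressure (6 animals). Animals were classed by repeated right heart catheterization, which measured the mean pulmonary arterial pressure (PAP), and by clinical signs. The groups shared their history: wild-type males, castrated at 6 to 8 months of age, kept at an elevation of 2170 m (7120 ft) in the chronic low oxygen of that altitude, and slaughtered at 13 to 15 months. There was no group at low altitude, and the labels call the low-PAP animals tolerant of hypoxia. Each library is 1 animal, and the libraries held 14739238 to 31090199 mapped reads, as recovered from the steps between values.

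TGF-beta ligands are secreted in a latent complex that is stored in the matrix, and once released they bind TGFBR2, which recruits and activates TGFBR1, so that SMAD2 and SMAD3 are phosphorylated. BMP ligands signal through BMPR2 and its type I partners to SMAD1, SMAD5 and SMAD9, while SMAD6 and SMAD7 are induced by the pathway and restrain it. In the heart the TGF-beta branch is known for activating fibroblasts and raising matrix production, and in humans loss of BMPR2 is the best known inherited cause of pulmonary arterial hypertension.

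Ventricle identity and the makeup of the libraries were checked with markers. The cardiomyocyte markers summed to 43030 RPKM in PH-failure replicate 3, against 56770 to 75010 in the other 11 libraries, and its macrophage markers to 153.2 RPKM, against 32.3 to 85.2. The 12 endothelial markers summed to 234.1 to 305.7 RPKM in PH-failure, 205.6 to 235.5 in PH-healthy and 134.1 to 237.4 in low PAP, where the highest value is that of low PAP replicate 6. None of the defining markers of the 7 cell types examined was at 0 in any library. In a tissue extract, fewer cells of a type and less RNA per cell cannot be told apart, and this holds for each level below. The column headers place the libraries on sequencing lanes 4 and 5, and each group is on both. PH-failure has only replicate 3 on lane 4, and PH-healthy only replicate 1 on lane 5. Within-lane values for these rest on 1 hypertensive animal.

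Most of the 10 genes were higher in both hypertensive groups. With a Benjamini-Hochberg adjusted p under 0.05 over all tested genes, 8 of the 10 genes rose in PH-failure relative to low PAP and none fell, where 33.8% of all tested genes passed in either direction, 28% higher and 5.79% lower. The 8 were TGFB2, TGFB3, TGFBR1, TGFBR2, ENG, BMPR2, SMAD6 and SMAD7. In PH-healthy relative to low PAP, 8 of 10 also rose and none fell, where 34.7% of all tested genes passed, 26.6% higher and 8.15% lower. TGFB1 was among these 8 and SMAD6 was not. The median log2 fold change of the 10 genes was 0.98 in PH-failure and 0.77 in PH-healthy, beside medians over all tested genes of 0.21 and 0.175. All 10 differences lay above 0 in each comparison, as did 70.8% and 66.6% of all tested genes. In 6 of the 10 genes, every PH-failure animal lay above every low-PAP animal (18.6% of all tested genes), and in 4 every PH-healthy animal did (25%). Both comparisons use the same 6 low-PAP libraries. Without PH-failure replicate 3, the number of the 10 that rose in PH-failure was 4 (TGFB2, TGFB3, TGFBR2 and ENG). Over all tested genes, 1283 then rose there, instead of 3190. Without PH-healthy replicate 1, or without PH-healthy replicate 2, the number of the 10 that rose in PH-healthy was 3. Over all tested genes, 1508 and 1822 then rose there, instead of 3024.

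**Figure D1:**
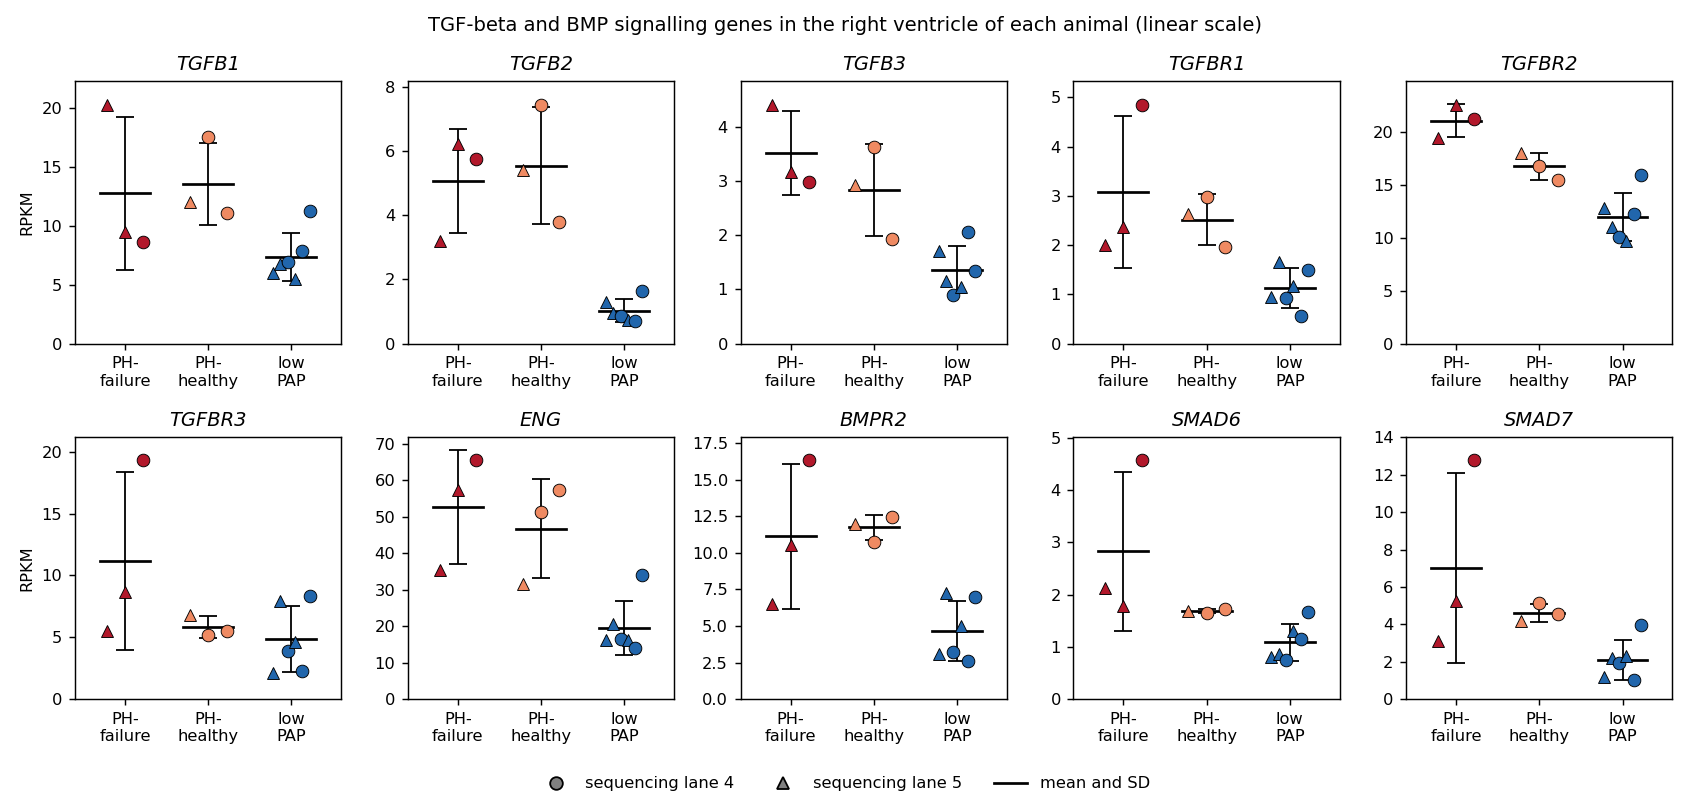
RPKM (vertical axes, linear, starting at 0) of each of the 10 genes in every library, with PH-failure at the left, PH-healthy in the middle and low PAP at the right; points are animals, circles and triangles are sequencing lanes 4 and 5, and lines are group mean and SD. The 6 hypertensive ventricles all lie above the 6 low-PAP ones for TGFB2 and TGFBR1, and PH-failure replicate 3 is the highest of the 12 libraries for 6 of the 10 genes.

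Among the ligands, TGFB2 differed most between the groups. TGFB2 (ENSBTAG00000005359, chromosome 16 from 22495735 to 22588280 in the deposited table, whose genome build the sources used here do not name) encodes the isoform that needs a co-receptor to bind TGFBR2 well. Its level was 3.21, 6.22 and 5.75 RPKM in the PH-failure ventricles, 5.41, 7.43 and 3.78 RPKM in the PH-healthy ventricles, and 0.693 RPKM (lowest), 0.896 (median) and 1.64 (highest) in the 6 low-PAP ventricles. Every hypertensive library thus lay above every low-PAP library, and the 2 hypertensive groups overlapped. The log2 fold change on the log2(RPKM + 1) scale was 1.56 ± 0.21 (SE) in PH-failure (adjusted p = 0.00102) and 1.67 ± 0.21 in PH-healthy (adjusted p = 0.000417). This scale understates the change of a gene at such low levels: the mean in PH-failure was 4.92 times that in low PAP, and the mean in PH-healthy 5.39 times. The values rest on 112 to 410 reads per hypertensive library and 51 to 114 reads per low-PAP library. Within lanes, the log2 fold change was 1.74 on lane 4 and 1.48 on lane 5 in PH-failure, and 1.65 and 1.69 in PH-healthy. The lane 4 value rests on PH-failure replicate 3 alone, and the PH-healthy lane 5 value on PH-healthy replicate 1 alone.

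TGFB1, the most abundant of the ligands in each of the groups, varied more between animals than between the groups of hypertensive animals. It stood at 20.3, 9.46 and 8.61 RPKM in PH-failure, 12.02, 17.6 and 11.1 RPKM in PH-healthy, and 5.46, 6.83 and 11.3 RPKM (lowest, median, highest) in low PAP. In PH-failure, 1 animal was far above the rest and the other 2 lay inside the low-PAP range. The log2 fold change was 0.66 ± 0.26 in PH-failure, which did not pass (adjusted p = 0.0631), and 0.81 ± 0.26 in PH-healthy (adjusted p = 0.029). Within lanes, the PH-failure difference was 0.02 on lane 4, from PH-failure replicate 3 alone, and 1.08 on lane 5. The PH-failure difference was 0.29 without PH-failure replicate 1 (adjusted p = 0.321) and 0.77 without low PAP replicate 6 (adjusted p = 0.0238). The PH-healthy call was lost without PH-healthy replicate 1 or 2 or without low PAP replicate 1, 3 or 4 (adjusted p from 0.0527 to 0.134).

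TGFB3, the third isoform, was 4.403, 3.16 and 2.98 RPKM in PH-failure, 2.92, 3.62 and 1.93 RPKM in PH-healthy, and 0.893, 1.24 and 2.05 RPKM (lowest, median, highest) in low PAP. PH-failure did not overlap low PAP, and PH-healthy did, through PH-healthy replicate 3. TGFB3 rose with a log2 fold change of 0.94 ± 0.18 in PH-failure (adjusted p = 0.00426) and 0.69 ± 0.18 in PH-healthy (adjusted p = 0.0134). In PH-healthy the call was lost without replicate 1 of that group (adjusted p = 0.0563) or replicate 2 (adjusted p = 0.0705), and under quantile normalization (0.40, adjusted p = 0.114).

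RPKM is per length, so the 3 ligands were set against each other. The exon lengths recovered were 1120 bases for TGFB1, 2368 for TGFB2 and 2558 for TGFB3. Whether the gene models are equally complete is not known, which limits each order of levels between genes. Their summed level averaged 21.4 ± 5.72 RPKM in PH-failure, 21.9 ± 6.06 in PH-healthy and 9.76 ± 2.43 in low PAP (SD, n = 3, 3 and 6). TGFB2 made up 11.5, 33.0 and 33.1% of that sum in the PH-failure ventricles, 22.5 to 26.6% in PH-healthy and 6.55 to 14.5% in low PAP. The PH-healthy shares all lay above the low-PAP shares, whereas PH-failure replicate 1, in which TGFB1 was high, lay among the low-PAP animals. TGFB1 made up 57.5 ± 13.2% in PH-failure, 62.2 ± 3.56% in PH-healthy and 75.3 ± 4.74% in low PAP. The shares were not tested.

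**Figure D2:**
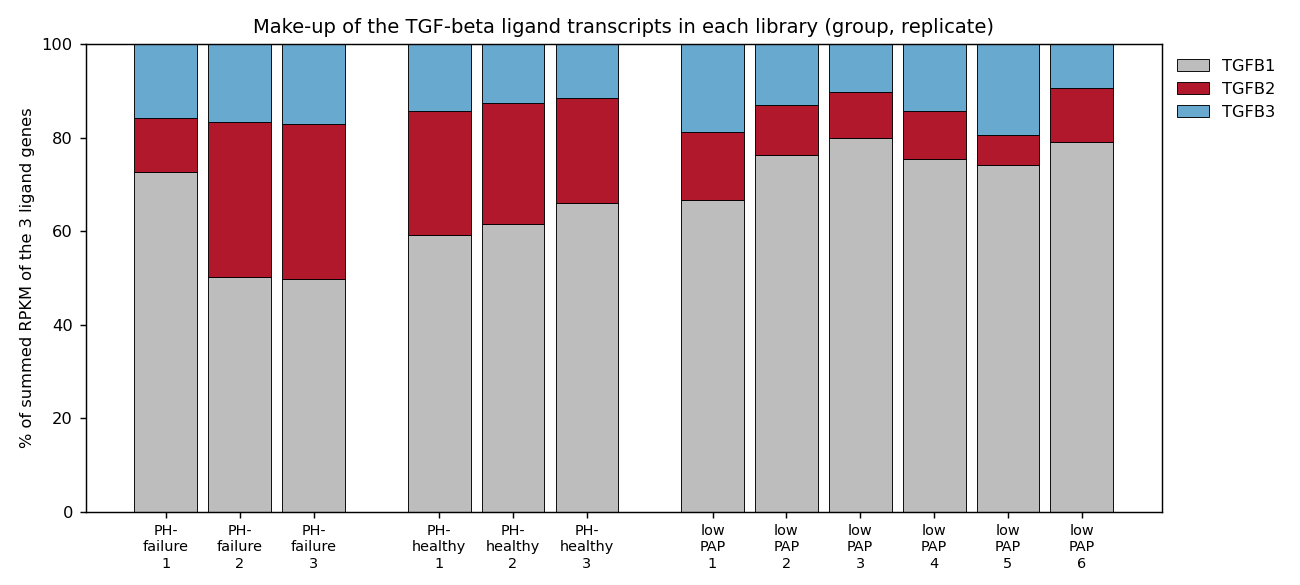
Percent of the summed RPKM of TGFB1, TGFB2 and TGFB3 (stacked bars, vertical axis from 0 to 100%) in each of the 12 libraries, with PH-failure at the left, then PH-healthy and low PAP. TGFB2 takes 22.5% or more in 5 of the 6 hypertensive ventricles and at most 14.5% in low PAP; the exception is PH-failure replicate 1, at 11.5%.

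The signalling receptors of TGF-beta rose by smaller amounts than TGFB2, and TGFBR2 was the steadier of the pair. TGFBR2, the type II receptor that binds ligand, was 19.4, 22.6 and 21.2 RPKM in PH-failure, 18.0, 16.8 and 15.4 RPKM in PH-healthy, and 9.68, 11.6 and 15.9 RPKM (lowest, median, highest) in low PAP. The PH-failure values lay above all others, and PH-healthy overlapped low PAP only through low PAP replicate 6. Its coefficient of variation was 7.46% in PH-failure, where those of the other 9 genes ran from 22.04 to 72.3%. On the log2 scale the difference was 0.78 ± 0.14 in PH-failure (adjusted p = 0.00294) and 0.47 ± 0.14 in PH-healthy (adjusted p = 0.0215). The PH-healthy call was lost without PH-healthy replicate 1 (adjusted p = 0.0931) or 2 (adjusted p = 0.0646), and when the libraries were rescaled by median ratios (adjusted p = 0.121) or by quantiles (adjusted p = 0.109).

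TGFBR1, the type I kinase that TGFBR2 activates, was much scarcer per length. It stood at 2.01, 2.37 and 4.85 RPKM in PH-failure, 2.62, 2.97 and 1.96 RPKM in PH-healthy, and 0.563, 1.05 and 1.66 RPKM (lowest, median, highest) in low PAP. Neither hypertensive group overlapped low PAP. TGFBR1 rose by 0.90 ± 0.21 in PH-failure (adjusted p = 0.0102) and 0.74 ± 0.21 in PH-healthy (adjusted p = 0.0203). Leaving out PH-failure replicate 3 ended the PH-failure call (0.61, adjusted p = 0.0543). The PH-healthy call was lost without PH-healthy replicate 1 (adjusted p = 0.0732) or 2 (adjusted p = 0.0826), under quantile normalization (0.46, adjusted p = 0.0831) and when the mean log2 level of adipocyte markers was a covariate (0.63, adjusted p = 0.11).

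The co-receptors behaved differently. ENG (endoglin, ENSBTAG00000008997, chromosome 11 from 98517161 to 98541363 in the table), a co-receptor carried mainly by endothelial cells, was the most abundant of the 10 genes in each of the groups. Its level was 35.3, 57.2 and 65.4 RPKM in PH-failure, 31.5, 51.2 and 57.4 RPKM in PH-healthy, and 13.9, 16.4 and 33.9 RPKM (lowest, median, highest) in low PAP. PH-failure lay above every low-PAP animal, and in PH-healthy replicate 1 lay below low PAP replicate 6. ENG rose by 1.40 ± 0.27 on the log2 scale in PH-failure (adjusted p = 0.00451) and by 1.23 ± 0.27 in PH-healthy (adjusted p = 0.00643). Both calls stood whichever single library was left out. Both were lost when the mean log2 level of the endothelial markers was a covariate. The adjusted p was then 0.32 in PH-failure and 0.0764 in PH-healthy, where the log2 fold change was 0.89. The PH-healthy call was also lost when the mean log2 level of the adipocyte markers was a covariate (0.99, adjusted p = 0.0537).

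TGFBR3 (betaglycan), the co-receptor that presents TGFB2 to TGFBR2, did not pass in either hypertensive group. It was 5.52, 8.67 and 19.3 RPKM in PH-failure, 6.83, 5.16 and 5.54 RPKM in PH-healthy, and 2.14, 4.24 and 8.32 RPKM (lowest, median, highest) in low PAP. All 3 PH-healthy values lay inside the low-PAP range, and PH-failure replicate 3 stood apart. The log2 fold change was 1.02 ± 0.39 in PH-failure (adjusted p = 0.0577) and 0.35 ± 0.39 in PH-healthy (adjusted p = 0.505), with 95% intervals of 0.18 to 1.86 and -0.49 to 1.18. The PH-failure difference passed without PH-failure replicate 1 (1.39, adjusted p = 0.0233), without low PAP replicate 2 (1.17, adjusted p = 0.0333) and without low PAP replicate 6 (1.18, adjusted p = 0.026). Per length, ENG exceeded TGFBR3 by 5.46 ± 1.79 times in PH-failure, 8.30 ± 3.20 times in PH-healthy and 4.68 ± 1.81 times in low PAP, with overlapping ranges.

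BMPR2 (listed as BMPRII, ENSBTAG00000006420, chromosome 2 from 91395346 to 91461311 in the table) rose in both hypertensive groups. Its level was 6.46, 10.6 and 16.3 RPKM in PH-failure, 11.98, 10.8 and 12.4 RPKM in PH-healthy, and 2.59, 4.09 and 7.24 RPKM (lowest, median, highest) in low PAP. The PH-healthy animals were close to each other and above all low-PAP animals, whereas PH-failure replicate 1 lay among the low-PAP values. On the log2 scale BMPR2 rose by 1.09 ± 0.30 in PH-failure (adjusted p = 0.017) and 1.24 ± 0.30 in PH-healthy (adjusted p = 0.00891). Without PH-failure replicate 3 the PH-failure difference was 0.79 (adjusted p = 0.0956). The PH-healthy call stood whichever single library was left out. It was lost when either marker mean was a covariate, adipocyte (0.97, adjusted p = 0.0703) or endothelial (0.98, adjusted p = 0.0954). The PH-failure call was also lost with the endothelial marker mean as a covariate (adjusted p = 0.477).

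The inhibitory SMADs were low in abundance. SMAD6, which mainly restrains BMP signals, was 2.13, 1.78 and 4.57 RPKM in PH-failure, 1.68, 1.65 and 1.72 RPKM in PH-healthy, and 0.751, 1.00 and 1.66 RPKM (lowest, median, highest) in low PAP. PH-failure did not overlap either other group, and PH-healthy replicate 2 lay just below low PAP replicate 6. SMAD6 rose by 0.82 ± 0.20 in PH-failure (adjusted p = 0.0111), and the difference was 0.38 ± 0.20 in PH-healthy (adjusted p = 0.152). Without PH-failure replicate 3 these were 0.52 (adjusted p = 0.051) and 0.38 (adjusted p = 0.0469), so that each crossed the threshold. Under quantile normalization the PH-failure difference was 0.52 (adjusted p = 0.0584). SMAD6 rested on 29 to 186 reads per library.

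SMAD7, which blocks TGFBR1 and is itself a target of TGF-beta, was 3.10, 5.22 and 12.8 RPKM in PH-failure, 4.18, 5.15 and 4.53 RPKM in PH-healthy, and 1.02, 2.04 and 3.95 RPKM (lowest, median, highest) in low PAP. PH-healthy lay above all low-PAP animals by a small margin, and PH-failure spread over a wide range that reached into low PAP. The log2 fold change was 1.26 ± 0.33 in PH-failure (adjusted p = 0.0156) and 0.92 ± 0.33 in PH-healthy (adjusted p = 0.0467). Leaving out PH-failure replicate 3 ended the PH-failure call (0.77, adjusted p = 0.0828). The PH-healthy call stood in 3 of the 12 fits that left out 1 library, with log2 fold changes of 0.81 to 1.07, and was lost under quantile normalization (adjusted p = 0.149) and median-ratio scaling (adjusted p = 0.0761).

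**Figure D3:**
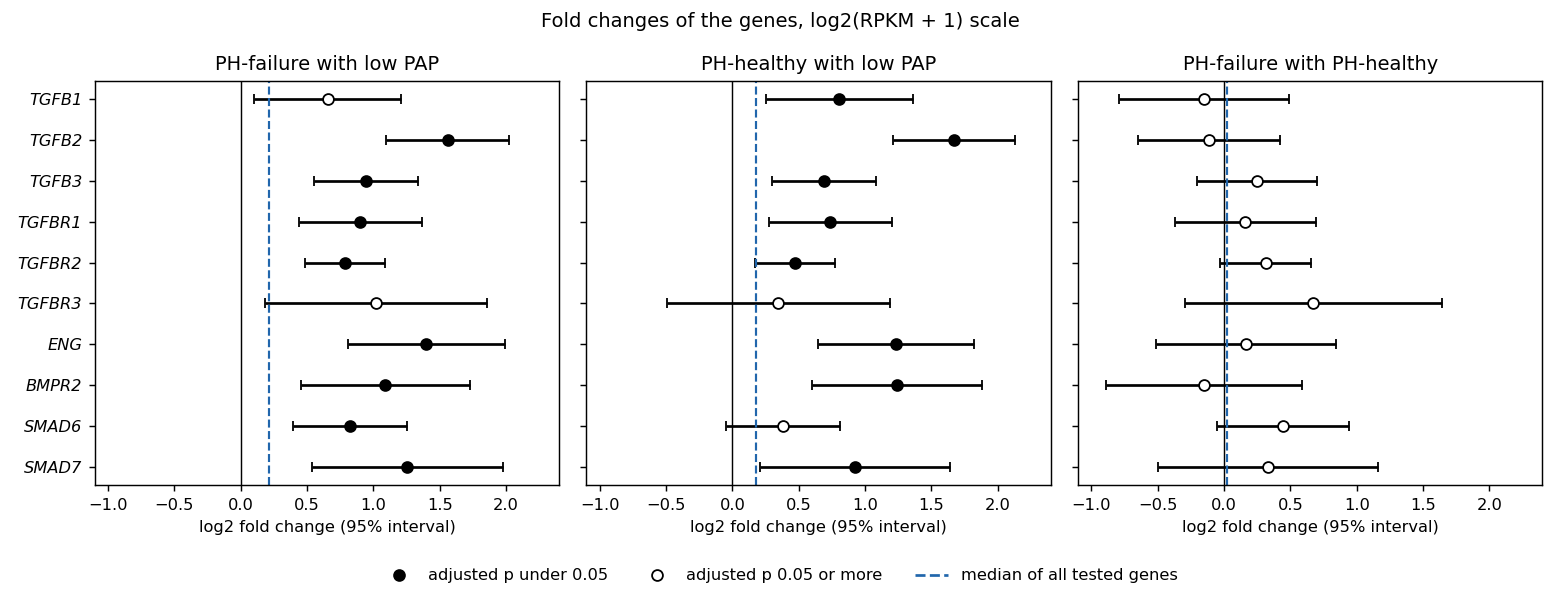
Log2 fold change on the log2(RPKM + 1) scale (horizontal axes) of each gene with its 95% interval, for PH-failure against low PAP (left), PH-healthy against low PAP (middle) and PH-failure against PH-healthy (right); filled points passed an adjusted p of 0.05, and the dashed line is the median of all tested genes. In both comparisons with low PAP, 8 of 10 genes passed, and in PH-failure with PH-healthy none did.

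PH-failure and PH-healthy were not told apart by these genes. None of the 10 passed, where 1 of 11374 tested genes did (0.00879%). At an unadjusted p under 0.05, the number was 0 of 10, beside 2.71% of all tested genes, and limma-voom on recovered reads called 0 of the 10. TGFBR2 and SMAD6 were higher in every PH-failure animal than in any PH-healthy animal, 2 of the 10 genes where 3.61% of all tested genes were higher without overlap. The log2 difference was 0.31 for TGFBR2 (95% interval -0.03 to 0.66) and 0.44 for SMAD6 (-0.06 to 0.94). The widest interval was that of TGFBR3, from -0.29 to 1.64, so a difference of that size was not excluded by these 3 and 3 animals. TGFB2 had an interval of -0.65 to 0.42 and BMPR2 one of -0.89 to 0.58.

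The order of the levels was shared at the top. ENG, TGFBR2 and TGFB1 were the 3 most abundant of the 10 per length in each of the groups. Across animals, the range of ENG did not overlap that of TGFBR2 in PH-failure or PH-healthy, and it did in low PAP. Within each low-PAP library, ENG was still the highest of the 10 genes and TGFBR2 the next. At the bottom, SMAD6 had the lowest mean in PH-failure (2.83 ± 1.52 RPKM) and PH-healthy (1.68 ± 0.0383 RPKM), whereas TGFB2 had the lowest in low PAP (1.03 ± 0.371 RPKM). TGFB2 ranked 7 of 10 in PH-failure and 6 of 10 in PH-healthy. Neighbours in the order overlapped for most pairs. In low PAP every neighbouring pair overlapped, so that SMAD6, TGFBR1, TGFB3 and TGFB2 cannot be ordered there.

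Single animals drove part of the spread. PH-failure replicate 3 was the highest of its group for 6 of the 10 genes, and PH-failure replicate 1 the lowest of its group for 7. The genes did not share 1 order of animals: PH-failure replicate 1 was the highest of the 12 libraries for TGFB1 and TGFB3, while it ranked 7 of 12 for TGFBR3 and SMAD7 and 8 of 12 for BMPR2. In low PAP, replicate 6 was the highest for 7 genes and replicate 5 the lowest for 5. Within lanes, the log2 fold changes with low PAP were above 0 for each of the 10 genes in both hypertensive groups on both lanes. The lowest was 0.02 (TGFB1 in PH-failure on lane 4). PH-failure on lane 4 and PH-healthy on lane 5 are 1 animal each.

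Some endothelial markers were higher in the hypertensive groups, so the genes were also set against these markers. Of the 12 endothelial markers, 5 rose in PH-failure and 4 in PH-healthy, and none fell. Over all tested genes, 28% and 26.6% rose. The marker medians were 0.44 and 0.33, beside 0.21 and 0.175 over all tested genes. CLDN5 and EMCN had negative log2 fold changes in PH-failure (-0.555 and -0.37) and in PH-healthy (-0.73 and -0.317), and passed in neither. VWF, the von Willebrand factor, rose to 29.0 ± 17.9 RPKM in PH-failure and 19.7 ± 3.71 in PH-healthy, against 5.48 ± 1.40 in low PAP (adjusted p = 0.00169 and 0.00302). KDR, the VEGF receptor of endothelial cells, had a log2 fold change of 0.64 in PH-failure (adjusted p = 0.0193) and 0.58 in PH-healthy (adjusted p = 0.0249). With the endothelial score (mean log2(RPKM + 1) of the 12 markers) added as a term, 0 of the 10 genes passed in PH-failure and 1, TGFB2, in PH-healthy. The same term left 44 and 866 of 11374 genes passing. The score ran from 4.09 to 4.30 in PH-failure, 3.94 to 4.15 in PH-healthy and 3.34 to 4.16 in low PAP.

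Levels were also expressed as a percent of the summed endothelial markers. TGFB2 was 1.32 to 2.66% of that sum in PH-failure, 1.84 to 3.16% in PH-healthy and 0.412 to 0.691% in low PAP, without overlap. ENG was 20.1 ± 5.10% of that sum in PH-failure, 21.6 ± 6.43% in PH-healthy and 10.6 ± 2.35% in low PAP, likewise without overlap (lowest hypertensive value 14.5%, highest low-PAP value 14.3%). TGFBR2 was 8.19 ± 1.36% in PH-failure, 7.75 ± 0.763% in PH-healthy and 6.58 ± 0.666% in low PAP, with overlap. Low PAP replicate 6 had an endothelial score of 4.16, within the range of the hypertensive animals, and a TGFB2 level of 1.64 RPKM, below each of them. These shares were not tested. With the endothelial score as a term, the TGFB2 call in PH-failure was lost (adjusted p = 0.121). What part endothelial cells have in these differences was not tested.

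Markers of other cell types were counted as well, where 28% of all tested genes rose in PH-failure and 26.6% in PH-healthy. Fibroblast markers rose for 5 of 8 genes in PH-failure and 3 of 8 in PH-healthy, and macrophage markers for 6 of 7 and 2 of 7. Mural cell markers rose for 5 of 7 in PH-failure and 4 of 7 in PH-healthy, with 1 lower in each. Their sum was 154.7 to 229.6 RPKM in PH-failure, 170.4 to 209.4 in PH-healthy and 185.0 to 287.9 in low PAP. Adipocyte markers summed to 39.7 to 118.5 RPKM in PH-failure, 35.0 to 38.6 in PH-healthy and 45.1 to 136.7 in low PAP. With an adipocyte score as a term, 9 of the 10 genes passed in PH-failure and 2 in PH-healthy. The same term left 3901 and 1347 of all tested genes passing. The part of the fibroblast, mural and macrophage markers in the results on the 10 genes was not tested.

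The genes around the pathway were counted by role, in lists of 84 genes of which 71 were tested. In the list of latent complex genes, activators and small proteoglycans, 10 of 14 rose in PH-failure and 8 of 14 in PH-healthy, and none fell. Of all tested genes, 28% and 26.6% rose. The list medians were 1.01 in each. With the endothelial score as a term the counts were 0 in PH-failure and 7 in PH-healthy. LTBP2, a latent TGF-beta binding protein family member of the matrix, stood at 17.7 ± 9.27 RPKM in PH-failure and 23.1 ± 5.39 in PH-healthy, against 2.86 ± 1.44 in low PAP. Its log2 fold changes were 2.23 ± 0.29 (adjusted p = 0.000826) and 2.69 ± 0.29 (adjusted p = 0.000176). BGN (biglycan), a small proteoglycan that binds TGF-beta, averaged 145.6 ± 29.0 RPKM in PH-failure and 122.5 ± 63.6 in PH-healthy, against 31.1 ± 9.02 in low PAP (adjusted p = 0.000788 and 0.00128). FMOD (fibromodulin), of the same family, rose by 1.196 ± 0.17 in PH-failure (adjusted p = 0.00123) and 0.95 ± 0.17 in PH-healthy (adjusted p = 0.00246). ITGB8, an integrin subunit that releases TGF-beta from its latent form, rose in both groups. Its log2 fold changes were 0.6 ± 0.13 in PH-failure (adjusted p = 0.00599) and 0.78 ± 0.13 in PH-healthy (adjusted p = 0.00161). Only hypertensive libraries reached 1 RPKM for ITGB8 and for LRRC32, another list gene. Both thus passed the filter through the groups where they were high. DCN (decorin), a list gene that is also one of the fibroblast markers, was 279.1 ± 71.3 RPKM in PH-failure, 221.5 ± 26.0 in PH-healthy and 274.0 ± 35.4 in low PAP, and passed in neither.

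Classic target genes of TGF-beta formed the list with the most calls. Of 17 tested, 16 rose in PH-failure and 13 in PH-healthy, and none fell, where 28% and 26.6% of all tested genes rose. The list medians were 1.35 and 0.98, beside 0.21 and 0.175 over all tested genes. The list was chosen with earlier results of these data known, so its counts are a description. For NOX4 and TNC, only hypertensive libraries reached 1 RPKM, so both passed the filter through the groups where they were high. TIMP1, an inhibitor of matrix metalloproteinases, stood at 71.7 ± 22.7 RPKM in PH-failure and 66.8 ± 29.5 in PH-healthy, against 14.1 ± 2.81 in low PAP (adjusted p = 0.000534 and 0.00047). COL1A1, a chain of type I collagen, had log2 fold changes of 2.03 ± 0.32 in PH-failure (adjusted p = 0.00186) and 1.62 ± 0.32 in PH-healthy (adjusted p = 0.00409). FN1 (fibronectin) had 1.62 ± 0.27 (adjusted p = 0.00205) and 1.43 ± 0.27 (adjusted p = 0.00286). The gene that did not pass in PH-failure was POSTN (periostin), at 318.3 ± 132.0 RPKM in PH-failure, 189.3 ± 27.0 in PH-healthy and 288.5 ± 82.4 in low PAP. The PH-healthy count was 6 without PH-healthy replicate 1 or without PH-healthy replicate 2, and the PH-failure count was 15 without PH-failure replicate 3. With the endothelial score as a term the counts were 0 and 2.

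Of 7 tested target genes of BMP, 1 rose in PH-failure and 0 in PH-healthy, where 1 fell. Among all tested genes, 28% rose and 5.79% fell in PH-failure, and 26.6% rose and 8.15% fell in PH-healthy. The list medians were 0.27 and -0.23, beside 0.21 and 0.175 over all tested genes. Whether this list differed from all tested genes was not tested. The 1 that rose was ATOH8, a transcription factor, at 3.29 ± 1.23 RPKM in PH-failure and 1.62 ± 0.220 in low PAP (adjusted p = 0.0116, and 0.063 without PH-failure replicate 3). The 1 that fell was ID1, an inhibitor of DNA binding and a standard BMP target, at 12.6 ± 3.21 RPKM in PH-healthy and 27.7 ± 10.5 in low PAP. Its log2 fold change was -1.02 ± 0.36 (adjusted p = 0.0453), and the call was lost in 7 of the fits that left out 1 library, each of the 3 PH-healthy animals included (adjusted p of 0.0696 to 0.169 without these). In PH-failure, ID1 was 16.8, 17.6 and 49.8 RPKM, where low PAP ran from 14.6 to 43.0. Its PH-failure mean of 28.1 ± 18.8 RPKM came close to that of low PAP through PH-failure replicate 3. Whether the TGF-beta and the BMP lists differed was not tested.

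Of 8 tested ligands and antagonists of the BMP branch, 4 rose and 1 fell in PH-failure, and 3 rose and 1 fell in PH-healthy. The shares over all tested genes were 28% rising and 5.79% falling in PH-failure, and 26.6% and 8.15% in PH-healthy. Whether this list differed from those shares was not tested. CHRD (chordin), an antagonist that binds BMPs, was scarce. It stood at 0.939 ± 0.181 RPKM in PH-failure and 0.979 ± 0.312 in PH-healthy, against 0.219 ± 0.0888 in low PAP (adjusted p = 0.00343 and 0.00235). CHRD reached 1 RPKM in hypertensive libraries only, so it passed the filter through the groups where it was high. BMP7, a ligand, stood at 37.6 ± 10.5 RPKM in PH-failure and 44.8 ± 3.20 in PH-healthy, against 24.3 ± 5.54 in low PAP, and rose in both (adjusted p = 0.0314 and 0.00616). In PH-failure BMP7 did not pass when PH-failure replicate 1 (adjusted p = 0.128) or 2 (adjusted p = 0.0706) was left out, nor without low PAP replicate 1, 3 or 4 (adjusted p of 0.057 to 0.0626). TWSG1, a secreted BMP-binding protein, had a log2 fold change of 0.47 ± 0.11 in PH-failure (adjusted p = 0.00971, and 0.0515 without PH-failure replicate 3) and 0.40 ± 0.11 in PH-healthy (adjusted p = 0.0158, and 0.0673 without PH-healthy replicate 1 or 0.076 without replicate 2). BMP6, a ligand, rose by 0.52 ± 0.16 in PH-failure (adjusted p = 0.0247, and 0.128 without PH-failure replicate 3). BMP5, the 1 that fell, was 24.0 ± 1.66 RPKM in PH-failure and 22.4 ± 1.84 in PH-healthy, against 34.4 ± 8.05 in low PAP (adjusted p = 0.045 and 0.0207). The BMP5 call stood in 2 of the 12 fits that left out 1 library in PH-failure, and in PH-healthy it was lost without PH-healthy replicate 1 or 3. Without PH-failure replicate 3, the number of list genes that rose in PH-failure was 2, and under either rescaling it was 1. The list genes GREM1, NOG, BMP10, GDF2 and BMPER were below the filter.

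Of 6 other type I and II receptors tested, 1 rose in each hypertensive group, where 28% and 26.6% of all tested genes rose. It was ACVR1B, an activin receptor, at 3.27 ± 2.00 RPKM in PH-failure and 2.57 ± 0.308 in PH-healthy, against 1.14 ± 0.612 in low PAP (adjusted p = 0.0188 and 0.036). Leaving out PH-failure replicate 3 ended the PH-failure call (adjusted p = 0.104), and the PH-healthy call was lost in 7 of the fits that left out 1 library (adjusted p of 0.0568 to 0.115). ACVRL1, the endothelial type I partner of ENG, was 16.0 ± 3.92 RPKM in PH-failure, 13.7 ± 4.07 in PH-healthy and 12.6 ± 5.87 in low PAP, and BMPR1A, listed as BMPR-IA, was 8.12 ± 1.34, 7.93 ± 0.701 and 6.90 ± 0.978 RPKM in the same groups. Neither passed.

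Among the SMADs that carry the signal, 1 of 6 rose in PH-failure and 2 of 6 in PH-healthy, where 28% and 26.6% of all tested genes rose. SMAD9, of the BMP branch, stood at 2.47 ± 1.56 RPKM in PH-failure and 1.65 ± 0.447 in PH-healthy, against 0.274 ± 0.0573 in low PAP. Its log2 fold changes were 1.36 ± 0.20 and 1.04 ± 0.20 (adjusted p = 0.00133 and 0.00319). Only hypertensive libraries reached 1 RPKM for SMAD9, so it passed the filter through the groups where it was high. SMAD3, of the TGF-beta branch, was 4.13 ± 0.924 RPKM in PH-healthy and 2.37 ± 0.801 in low PAP (adjusted p = 0.0232, and 0.0539 without PH-healthy replicate 1 or 0.112 without replicate 3). SMAD4, the common partner, was 20.5 ± 2.82 RPKM in PH-failure, 20.1 ± 1.33 in PH-healthy and 21.4 ± 2.28 in low PAP. Of the 13 tested genes that regulate SMADs, 6 rose in PH-failure and 7 in PH-healthy, beside the same 28% and 26.6% of all tested genes. PMEPA1, a TGF-beta target that sequesters SMADs, stood at 4.90 ± 0.806 RPKM in PH-failure and 5.19 ± 1.41 in PH-healthy, against 1.196 ± 0.582 in low PAP (adjusted p = 0.00145 and 0.000781). USP9X, a deubiquitinase of SMAD4, had log2 fold changes of 0.72 ± 0.17 (adjusted p = 0.0107, and 0.0545 without PH-failure replicate 3) and 0.74 ± 0.17 (adjusted p = 0.00804). SMURF1, a ubiquitin ligase of SMADs and receptors, had 0.65 ± 0.16 in PH-failure (adjusted p = 0.0104, and 0.0587 without PH-failure replicate 3) and 0.50 ± 0.16 in PH-healthy (adjusted p = 0.0266, and 0.103 without PH-healthy replicate 1 or 3 or 0.0527 without low PAP replicate 3). For the SMAD regulators the PH-failure count was 1 without PH-failure replicate 3, 2 under quantile normalization and 0 with the endothelial score as a term. The PH-healthy count was 2 to 3 without any 1 of the PH-healthy animals or without low PAP replicate 1, 3, 4 or 5. It was 2 under either rescaling and 1 with either the adipocyte or the endothelial score as a term. In PH-failure with PH-healthy, no gene of any of the 7 lists passed.

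**Figure D4:**
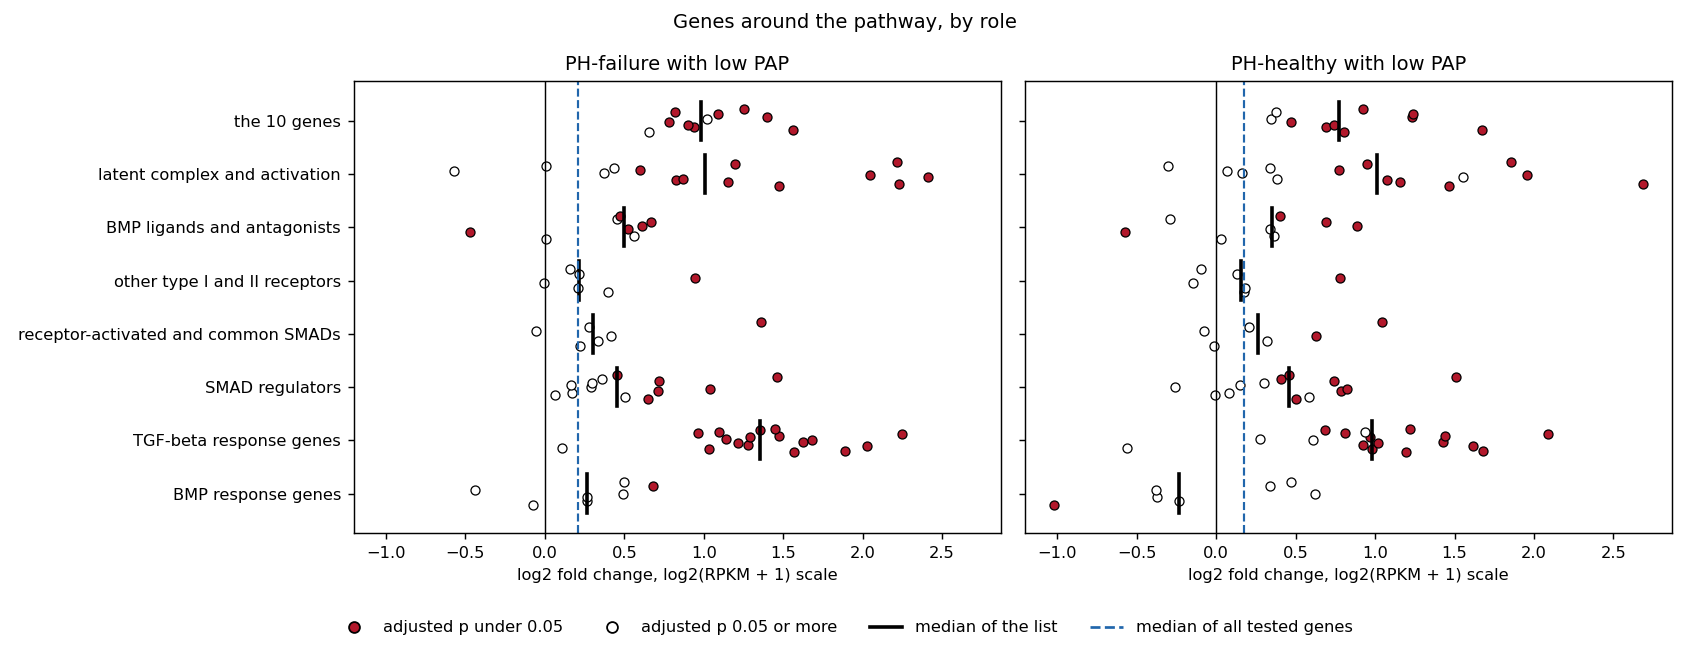
Log2 fold change (horizontal axes, log2(RPKM + 1) scale) of the 10 genes and of the genes around the pathway, by role, for PH-failure with low PAP (left) and PH-healthy with low PAP (right); each point is a gene, filled where the adjusted p was under 0.05, the bar is the list's median and the dashed line the median of all tested genes. The TGF-beta response genes have medians of 1.35 and 0.98, and the BMP response genes 0.27 and -0.23.

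The genes with the most similar profile were found by the mean absolute difference of centred log2(RPKM + 1) values over the 12 libraries, among 10322 genes. BMPR2 was nearest to GNA13 (0.06), KIF1B (0.07) and PAK2 (0.08), beside its own mean absolute deviation of 0.61. TGFBR1 was nearest to SMIM14 (0.06), MAN2A1 (0.07) and GNB4 (0.10). TGFB2 was nearest to HOMER2, PEG10 and LGALS3, at 0.16 each, with HOMER2 at 55.7 RPKM in PH-failure, 61.4 in PH-healthy and 19.7 in low PAP. ENG was nearest to CALD1 (0.17), NUP214 (0.18) and SLCO2A1 (0.18). SMAD6 was nearest to LRRC32 (0.10), a list gene that holds latent TGF-beta at the cell surface, at 2.15 RPKM in PH-failure, 1.15 in PH-healthy and 0.658 in low PAP. TGFBR3 had its nearest gene, TIMP3, at 0.19. The libraries share group, depth and scaling, so these distances are a description.

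The authors' deposited table gives its own comparison of all high-PAP with low-PAP animals. In the authors' deposited table, ENG (false discovery rate 4.77e-05), TGFB2 (0.0117) and BMPR2 (0.0282) were under 0.05, 3 of the 10 genes, where 4.13% of the 24616 genes were. The other 7 were at 0.173 or more in the authors' deposited table, which lists folds of 1.499 (TGFBR2) to 4.48 (TGFB2) for the 10 genes. The group means in the authors' deposited table are not those of the 12 libraries used here.

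The fold changes of the 10 genes were followed through every alternative. Against low PAP, each gene kept a difference above 0 in every alternative in both hypertensive groups, with 1 exception, TGFBR3 in PH-healthy with the endothelial score as a term (-0.015). TGFB2 in PH-healthy passed in all 22 alternatives, and in PH-failure in 21 of 22, the exception being the endothelial score (adjusted p = 0.121). SMAD7 in PH-healthy passed in 7 of 22.

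**Figure D5:**
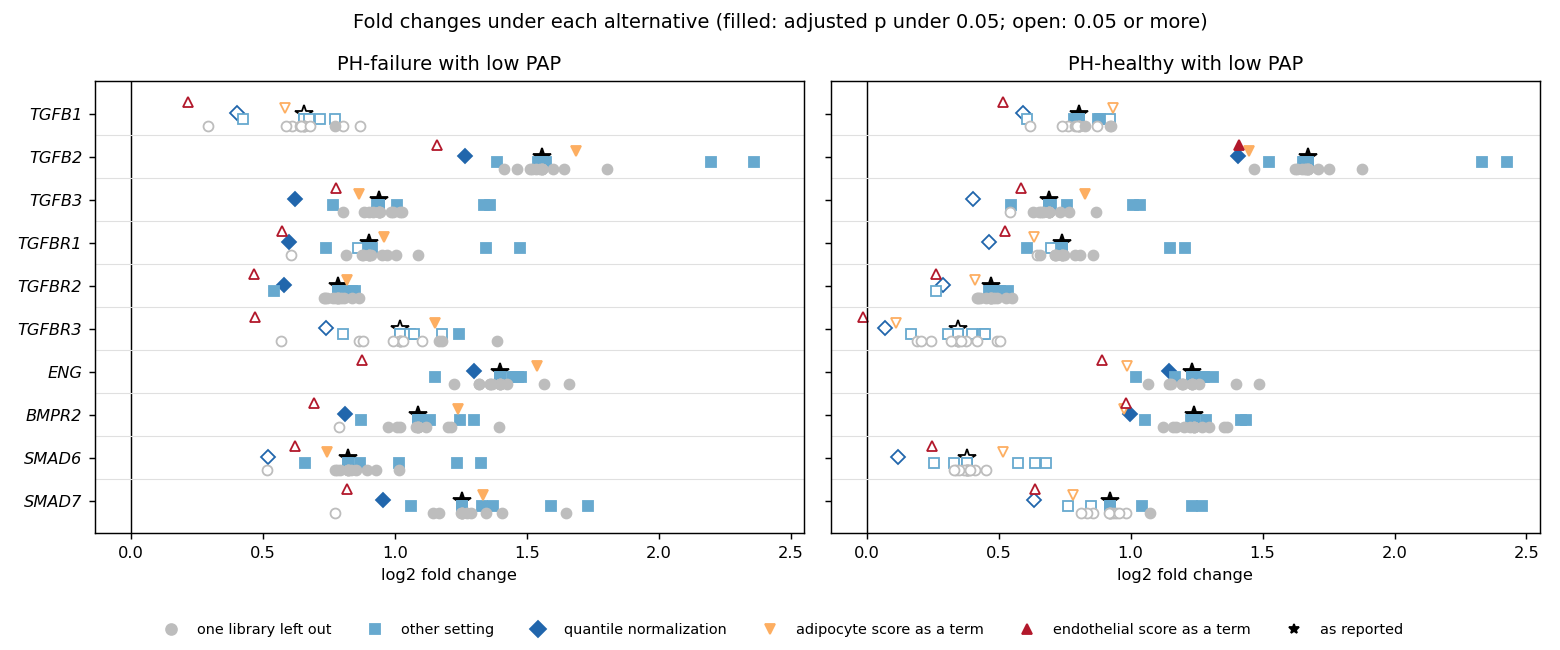
Log2 fold change (horizontal axes) of each gene as reported (stars) and under each of the 22 alternatives, for PH-failure with low PAP (left) and PH-healthy with low PAP (right); filled symbols have an adjusted p under 0.05. With the endothelial score as a term (upward triangles), TGFB2 in PH-healthy is the 1 filled symbol.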

How the data were processed

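RNA of 12 right ventricles was isolated with Trizol and prepared by Illumina's standard library protocols, per the labels' protocols. The authors deposited RPKM for 24616 genes, per the file headers, beside their own mean RPKM, signed fold change between those means (a score below 0 where lower at high PAP), p-value and false discovery rate. The sources used here name no aligner, counting method, strand setting, genome build or test. How reads shared with related genes were counted is likewise unknown.

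Genes that reached 1 RPKM in 3 or more libraries (11374 of 17284 above 0) were tested with limma 3.58.1 (trend, robust, statmod 1.5.0, R 4.3.3) on log2(RPKM + 1), in 1 model of 3 groups without covariates, with Benjamini-Hochberg adjustment over all tested genes. A fold change on this scale understates the change of low genes. Whole reads were recovered from the RPKM steps: 11372 of 11374 tested genes came out whole in every library, within 0.05 reads, with a median of 370 reads. limma-voom on those reads was an alternative and called 4013 genes in PH-failure with low PAP. Depth covers counting error only. The fits were tested on simulated data. BMPRII and other older symbols were matched through RefSeq synonyms, and ID4 was not matched. From each list, up to 3 genes of smallest p among those that passed are named. POSTN, DCN, BMP5, ACVRL1, BMPR1A, SMAD4, VWF, KDR, CLDN5 and EMCN were added after their values were seen. The 10 genes and the lists were chosen with earlier results of these data known. Tables and plots used pandas 2.3.3, numpy 2.4.6 and matplotlib 3.10.9 in Python 3.11.15.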

Additional observations from a re-analysis of the deposited data

Results flagged for a closer look

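Of 35 genes named in the text that were checked for an animal far from the rest of the low-PAP group, 2 had one, and chance flags about 1 group in 20. Both concern low PAP replicate 6. ENG was 33.9 RPKM in that animal, the next highest low-PAP value being 20.5, a gap of 0.671 of the group's range (critical value 0.625). LTBP2 was 5.75 RPKM in the same animal, the next being 2.63, a gap of 0.788. The endothelial markers of that animal summed to 237.4 RPKM, against 134.1 to 200.8 in the other 5. Without it, 10 of the 10 genes rose in PH-failure and 8 in PH-healthy. Over all tested genes, 3832 then rose in PH-failure instead of 3190, and 3588 in PH-healthy instead of 3024. What sets this animal apart was not tested.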

How the results depend on the processing

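Against low PAP, the number of the 10 genes that passed in PH-failure (8) was 7 to 9 in 9 of the 10 alternatives that kept all libraries and 0 with the endothelial score. In PH-healthy (8) it was 3 under quantile normalization, 5 under median-ratio scaling, 2 with the adipocyte score, 1 with the endothelial score and 6 to 8 otherwise. Leaving out 1 library gave 4 to 10 in PH-failure (4 without PH-failure replicate 3), 3 to 9 in PH-healthy (3 without PH-healthy replicate 1 or 2) and 0 to 0 in PH-failure with PH-healthy. Over all genes, the 3848 that passed in PH-failure were 2551 under quantile normalization and 44 with the endothelial score. The 3951 in PH-healthy were 1347 with the adipocyte score and 866 with the endothelial score. Leaving out 1 library gave 1540 to 4669 and 1890 to 4643, and 0 to 4 in PH-failure with PH-healthy. There the 1 gene was 0 under voom, the fit of the 2 groups alone, the library series (the lanes), the replicate block and either score. The cause was not tested.

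Rescaling shifted all genes: medians of 0.21 and 0.175 became -0.03 and -0.04 under quantile normalization and 0.01 and 0.00 under median ratios. The split of 3190 higher and 658 lower in PH-failure became 1133 and 1418, or 1530 and 1681. That of 3024 and 927 in PH-healthy became 1424 and 1622, or 1824 and 1861. The median of the 10 genes was then 0.68 and 0.53 under quantile normalization, and 0.79 and 0.61 under median ratios.

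The replicate numbers name different animals, and same-numbered animals had correlations of -0.26 to 0.19, so they do not pair. With a replicate block, 7 and 6 of the 10 genes passed against low PAP and 0 in PH-failure with PH-healthy, with 1379 and 1834 over all genes.

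Of 220 results of single genes per comparison, 14 calls were lost in PH-failure and 45 in PH-healthy. Signs turned for differences near 0. TGFBR3 in PH-healthy was -0.015 with the endothelial score. In PH-failure with PH-healthy, TGFB2 was 0.24 and BMPR2 0.27 with the adipocyte score, and ENG -0.016 with the endothelial score. Leaving out 1 library there gave -0.51 to 0.06 for TGFB1, -0.32 to 0.13 for TGFB2, -0.13 to 0.35 for TGFBR1, -0.089 to 0.42 for ENG, -0.45 to 0.15 for BMPR2 and -0.15 to 0.72 for SMAD7.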
